A study of Mus musculus with 33 samples.

Results

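The 45 genes described here belong to, or are named after, the bone morphogenetic protein (BMP) and transforming growth factor beta (TGF-beta) signalling family. They are all the gene symbols of the count table that begin with Bmp, Tgfb, Smad, Acvr or Inhb, or with Gdf and a digit, together with Id1, Id2, Id3, Id4, Chrd, Nog, Grem1 and Fst, out of 14664 symbols in all. They were grouped by role into ligands, receptors, SMADs, extracellular inhibitors and modulators, and ID proteins. Another 5 genes share the symbols but have another role (Bmp1, Bmp2k, Tgfb1i1, Tgfbi and Tgfbrap1). All 45 had enough reads to be tested.

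RNA was sequenced from the ganglionic eminences of CD1 mouse embryos at e13.5, with 4 Dlx1/2 knockout and 4 wild-type libraries. The eminences are the swellings of the ventral forebrain that produce striatal neurons and GABAergic interneurons, and the knockout embryos are null for the neighbouring homeodomain factor genes Dlx1 and Dlx2. Which exons the allele removes is not stated in the labels, so reads of Dlx1 can remain. The RNA of each genotype came from 4 embryos, 2 male and 2 female, and the labels do not say which library holds which sex, or that embryos were litter mates. The other 25 of the 33 samples were ChIP libraries and inputs, which were not used here.

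Ligands of this family are secreted dimers that bring together type I and type II receptor kinases at the cell surface. Activated type I receptors phosphorylate receptor-regulated SMADs, which join the common SMAD4 and act on genes in the nucleus. BMPs mainly act through SMAD1 and SMAD5, and TGF-betas and activins through SMAD2 and SMAD3. Inhibitory SMADs and ID genes are classic targets of the pathway, and secreted proteins such as noggin, chordin and follistatin bind the ligands and keep them from their receptors. In the embryonic telencephalon BMPs are best known as signals of the dorsal midline, opposite to the eminences.

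The labels were checked first on the targeted genes. Dlx1 had 21.5 to 26.1 CPM (reads scaled to a common library total) in the knockout libraries, against 119 to 129 CPM in the wild-type libraries, and Dlx2 had 1.02 to 1.501 CPM in knockout, against 15.3 to 29.0 CPM in wild type. Knockout libraries held 14.4 to 48.3 M counted reads, and wild-type libraries 20.2 to 117 M. Of 14 genes of eminence identity, 8 fell and none rose in knockout. CPM are scaled to each library's total and a composition factor, and do not correct for transcript length, so levels are compared between libraries and not between genes. Differences are log2 ratios of knockout to wild type with a standard error (SE), and a gene was called at an adjusted p under 0.05 over the 14510 genes tested with edgeR's quasi-likelihood test. Replicates 1 and 2 stood apart from 3 and 4 in both genotypes, so results are also given within each pair where this mattered. The p-values measure the spread between these libraries, and whether each library is 1 embryo is not spelled out in the labels.

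In the knockout eminences 3 of the 45 genes changed, and all 3 encode TGF-beta or activin ligands: Tgfb3 and Inhba fell, and Inhbb rose. That is 6.67% of the members, where 1.48% of all genes tested were called, 0.586% higher and 0.896% lower. Inhba was over the filter for low counts in 4 wild-type libraries and 1 knockout library, so it entered the test through the wild type. Under a stricter filter of 1 CPM in 4 libraries Inhba was not tested, and 2 of 40 members and 203 of 13370 genes were called. Receptors, SMADs, BMP ligands, extracellular inhibitors and ID genes gave no call with this test. Between the genotypes, 35 of the 45 members (77.8%) had a log2 difference within 0.25 of zero, as did 83.7% of all genes tested. The median log2 difference over the members was 0.03, and over all genes tested it was 0.00. With the replicate number as a block, 6 members were called (13.3%), where 4.38% of all genes were, and the added genes Bmper, Bmpr1b and Id4 were all higher. The block assumes that equal numbers mark pairs, which was not borne out for replicates 1 and 2. A term for replicates 1 and 2 against 3 and 4, a split seen in these data, also called Bmper, Bmpr1b and Id4 (edgeR adjusted p = 0.00106, 0.0348 and 0.0132). DESeq2 called 5 members (11.1%) and 3.23% of all genes. The count fell to 1 member, Tgfb3, without knockout replicate 1, knockout replicate 2, wild-type replicate 1 or wild-type replicate 2, and to 1 in replicates 3 and 4 alone. In 5 members (11.1%) the 4 knockout and 4 wild-type values did not overlap, as in 5.98% of all genes tested. In bulk tissue, fewer cells of a type and less RNA per cell cannot be told apart.

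**Figure D1:**
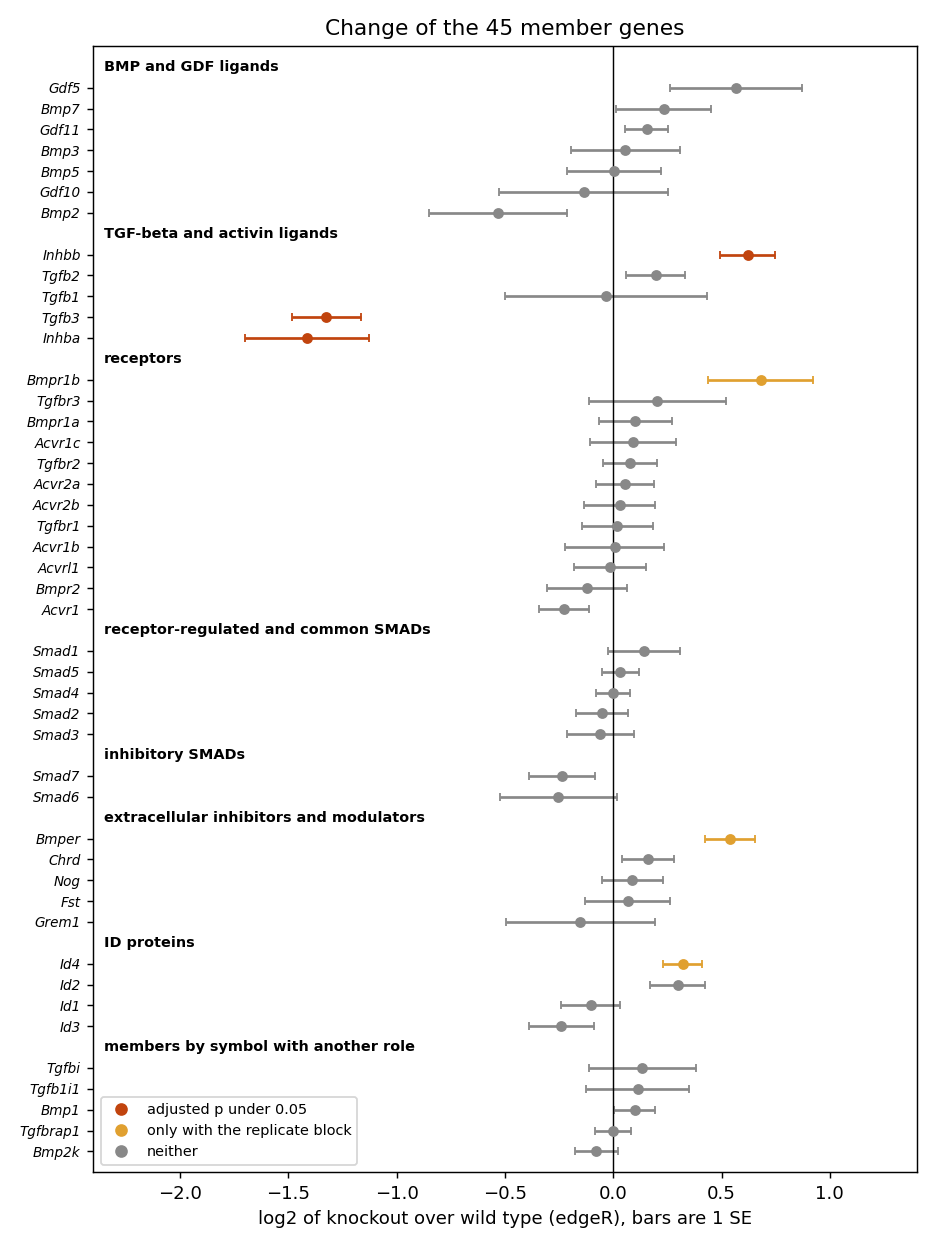
Log2 of knockout over wild type for each of the 45 genes, grouped by role, with bars of 1 SE from edgeR (4 libraries per genotype). The 3 called genes, Inhbb at 0.62, Tgfb3 at −1.32 and Inhba at −1.42, are all among the TGF-beta and activin ligands, and Bmpr1b, Bmper and Id4 passed with the replicate block.

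The sequence upstream of 3 of the genes whose values did not overlap is shown for context: the activin subunit genes Inhba and Inhbb, which changed in opposite directions, and Id4. Each is the run of 250 bases before the RefSeq start on the gene's own strand in GRCm38.p6. The letters TAATT, the core of many homeodomain binding sites, were searched on both strands (TAATT or AATTA), as was GGCGCC, a palindrome known as a BMP-responsive SMAD site. Matches are in capitals.
Inhba (chr13:16011601-16011850, + strand): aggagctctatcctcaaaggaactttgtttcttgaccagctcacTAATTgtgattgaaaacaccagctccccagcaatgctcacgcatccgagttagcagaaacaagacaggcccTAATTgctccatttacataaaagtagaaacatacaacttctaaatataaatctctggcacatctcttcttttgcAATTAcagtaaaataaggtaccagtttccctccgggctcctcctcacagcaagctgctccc
Inhbb (chr1:119422249-119422498, - strand): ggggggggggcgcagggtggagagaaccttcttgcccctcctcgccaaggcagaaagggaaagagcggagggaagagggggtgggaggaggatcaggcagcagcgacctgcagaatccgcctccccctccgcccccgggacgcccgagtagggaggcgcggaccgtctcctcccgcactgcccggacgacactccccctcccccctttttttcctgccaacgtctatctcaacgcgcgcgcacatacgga
Id4 (chr13:48260866-48261115, + strand): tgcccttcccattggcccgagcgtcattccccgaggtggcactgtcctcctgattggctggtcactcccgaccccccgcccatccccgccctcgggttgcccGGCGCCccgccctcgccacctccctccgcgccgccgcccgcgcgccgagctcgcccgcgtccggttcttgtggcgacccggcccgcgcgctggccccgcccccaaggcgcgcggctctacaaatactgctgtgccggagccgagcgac
The Inhba window held TAATT 3 times and GGCGCC not at all, and 43.2% of its bases were G or C. Inhbb, at 68.0% G or C, held neither. The Id4 window was the richest in G and C of the 3, at 75.6%, with 1 GGCGCC and no TAATT. Bmper, whose window is not shown, held neither at 71.6% G or C. TAATT was found in 25.0% of 32851 promoter windows of the reference and in 5 of 37 member windows, each of another gene among the 30 members with a window. GGCGCC was in 9.59% of all windows and 29.7% of the member windows (11 of 37). These were windows of Id2, Id4, Chrd, Grem1, Smad5 and the receptor genes Bmpr1a, Bmpr2 and Tgfbr1. They also included Bmp2k, Tgfbi and Tgfbrap1, which have another role. GGCGCC holds only G and C, and the shares were not compared at equal G and C content. These matches describe letters in short windows, and no binding was measured at them here.

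The TGF-beta and activin ligands held all of the called genes. Tgfb3, one of the TGF-beta ligand genes, had 4.435, 4.10, 5.885 and 5.00 CPM in the knockout libraries, against 10.1, 11.53, 15.0 and 11.6 CPM in the wild-type libraries, in the order of replicates 1 to 4. Every knockout value lay under every wild-type value. Tgfb3 averaged 4.855 ± 0.782 CPM in knockout and 12.05 ± 2.10 CPM in wild type (SD, n = 4 each), a 2.50-fold fall (log2 −1.32, SE 0.16, edgeR adjusted p = 0.00207). It kept its call without any 1 of the 8 libraries (adjusted p from 0.00349 to 0.0119), and the log2 difference was −1.33 within replicates 1 and 2 and −1.30 within replicates 3 and 4. The authors' deposited table gives it a log2 fold change of −1.32.

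The other TGF-beta ligand genes did not pass. Tgfb2 had 5.81, 4.79, 5.35 and 6.39 CPM in the knockout libraries, against 4.41, 4.85, 4.80 and 5.50 CPM in the wild-type libraries (log2 0.20, SE 0.14, edgeR adjusted p = 1), and the groups overlapped. Tgfb1 was low, with 8 to 21 reads per knockout library, against 7 to 35 reads per wild-type library (log2 −0.03, SE 0.47), and its log2 ratio of replicates 1 and 2 to 3 and 4 was −1.29 in knockout and −0.08 in wild type. Taken within each library, there were 0.763, 0.856, 1.10 and 0.783 reads of Tgfb3 for each read of Tgfb2 in knockout, against 2.28, 2.38, 3.13 and 2.11 in wild type. These ratios do not depend on the scaling between libraries, and the genotypes did not overlap. That lack of overlap follows from the levels of Tgfb3 and Tgfb2 and is no further support.

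Inhba and Inhbb encode the beta A and beta B subunits, which pair to form activins, or join the alpha subunit of Inha to form inhibins. Inhba had 11, 15, 3 and 13 reads in the knockout libraries, against 103, 20, 22 and 15 reads in the wild-type libraries. Scaled, this was 0.261, 0.314, 0.201 and 0.500 CPM in the knockout libraries, against 0.901, 0.9895, 0.934 and 0.625 CPM in the wild-type libraries. The groups did not overlap, and knockout replicate 4 and wild-type replicate 4 lay closest to each other. Inhba averaged 0.319 ± 0.1295 CPM in knockout and 0.862 ± 0.162 CPM in wild type (SD, n = 4 each), a 2.67-fold fall (log2 −1.42, SE 0.29, edgeR adjusted p = 0.0429). It was over the filter of 0.401 CPM in all 4 wild-type libraries and in 1 knockout library, so it entered the test through the wild type. Leaving out knockout replicate 4 or wild-type replicate 4 kept the call, and leaving out any other single library ended it (6 fits, edgeR adjusted p between 0.0928 and 0.163). Within replicates 1 and 2 the log2 difference was −1.68 (edgeR adjusted p = 0.0473), and within replicates 3 and 4 it was −1.01 (adjusted p = 0.668). In the reference annotation Inhba overlaps B230303A05Rik, and the sources do not say whether reads were counted by strand.

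Inhbb moved the other way. It had 14.7, 13.4, 10.9 and 14.4 CPM in the knockout libraries, against 8.90, 8.31, 7.81 and 9.84 CPM in the wild-type libraries. All knockout values were above all wild-type values, with knockout replicate 3 the lowest of its group. Inhbb averaged 13.4 ± 1.725 CPM in knockout and 8.71 ± 0.871 CPM in wild type (SD, n = 4 each), a 1.54-fold rise (log2 0.62, SE 0.12, edgeR adjusted p = 0.0424). Leaving out knockout replicate 3 or wild-type replicate 4 kept the call, and each of the other 6 single libraries left out ended it (edgeR adjusted p between 0.0989 and 0.142). The log2 difference was 0.70 within replicates 1 and 2 (edgeR adjusted p = 0.0125) and 0.53 within replicates 3 and 4 (adjusted p = 0.384). For each read of Inhba, knockout libraries held 56.4, 42.8, 54.3 and 28.8 reads of Inhbb, against 9.87, 8.40, 8.36 and 15.7 in wild-type libraries. Since Inhba and Inhbb differed in opposite directions with no overlap, these ratios restate both differences and are no further support, and they rest on 3 to 15 Inhba reads per knockout library. Inha, which is no member by symbol, had 5.69, 4.75, 8.025 and 5.62 CPM in the knockout libraries, against 5.80, 6.135, 6.37 and 9.29 CPM in the wild-type libraries (log2 −0.21, SE 0.20, edgeR adjusted p = 1), and its groups overlapped.

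**Figure D2:**
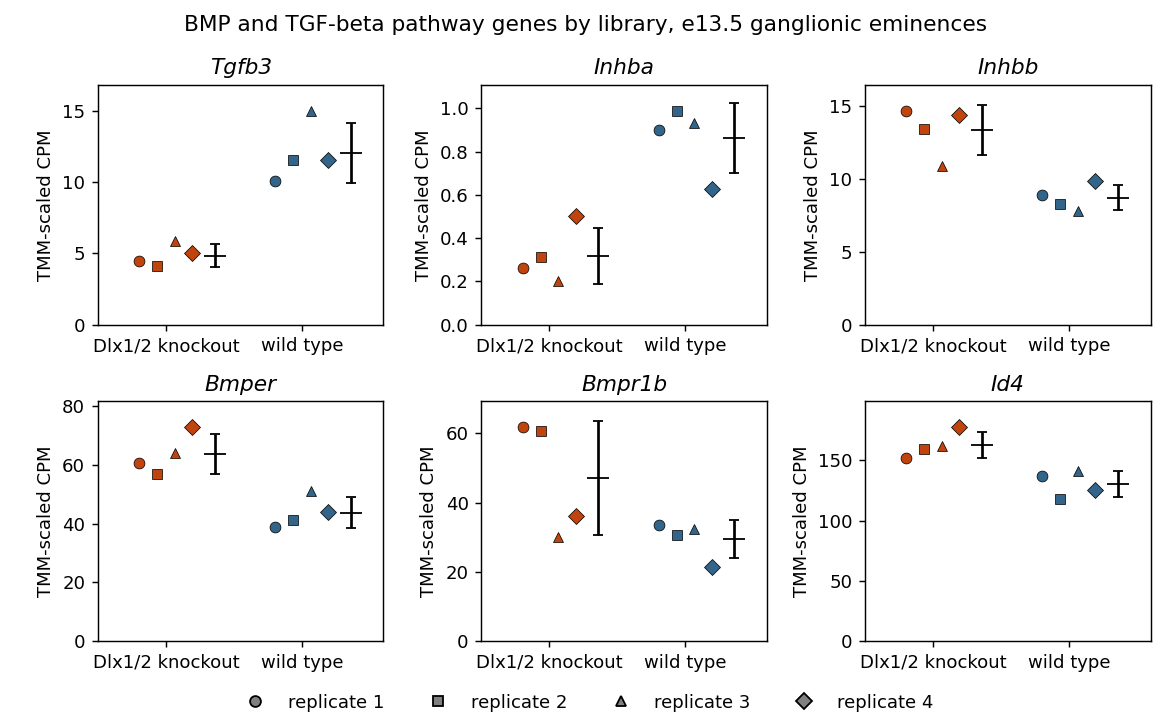
TMM-scaled CPM of 6 genes in each library, with knockout on the left and wild type on the right of each panel, replicates told apart by shape, and mean ± SD beside the points. Tgfb3 and Inhba are lower and Inhbb, Bmper and Id4 higher in all 4 knockout libraries, while Bmpr1b overlaps, with knockout replicates 1 and 2 high at 61.8 and 60.8 CPM.

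**Figure D3:**
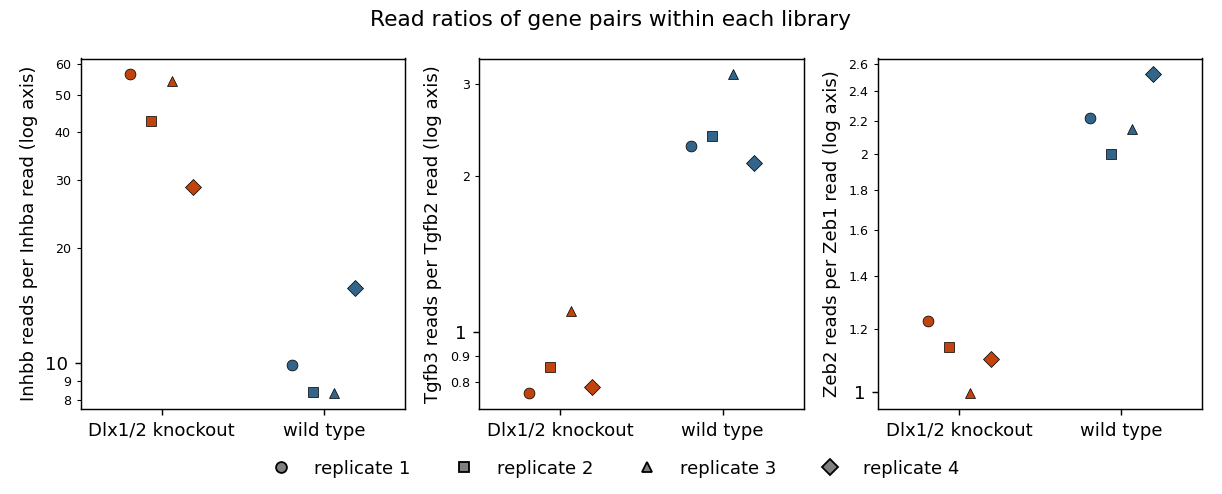
Reads of a gene for each read of its partner within the same library, on log axes: Inhbb per Inhba, Tgfb3 per Tgfb2, and Zeb2 per Zeb1. The pairs were chosen after their values were seen. For each pair the lack of overlap between the genotypes follows from the levels of the genes and adds no support. Tgfb3 per Tgfb2 lies between 0.763 and 1.10 in knockout and between 2.11 and 3.13 in wild type.

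None of the 7 BMP and GDF ligand genes was called by edgeR, by DESeq2 or with the replicate block, and none passed at an unadjusted p under 0.05. Their median log2 difference was 0.06, with 5 positive and 2 negative. Those with the largest differences were the joint and skeletal ligand gene Gdf5 (log2 0.57, SE 0.31, edgeR adjusted p = 0.867) and the BMP ligand gene Bmp2 (log2 −0.53, SE 0.32, adjusted p = 0.968). Gdf5 had 1.45, 2.17, 0.669 and 1.92 CPM in the knockout libraries, against 1.10, 1.435, 0.934 and 0.917 CPM in the wild-type libraries. Knockout replicate 3, at 10 reads, was below every wild-type library, while the other knockout libraries were above all of them. Bmp2 had 13, 21, 6 and 15 reads in knockout, against 48, 16, 14 and 20 in wild type, and its scaled values overlapped. The others, Bmp3, Bmp5, Bmp7, Gdf10 and Gdf11, lay between −0.14 and 0.23 on the log2 scale. Only Gdf11, whose product is close to myostatin and limits neuron number in olfactory epithelium and retina, had at least 269 reads in every library, and its SE of 0.10 was the smallest of the 7. It had 16.25, 15.5, 18.0 and 19.6 CPM in the knockout libraries, against 15.4, 15.2, 15.7 and 15.9 CPM in the wild-type libraries, and the groups overlapped.

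Among the 5 extracellular inhibitors and modulators, Bmper stood out by its values. Its product, the vertebrate crossveinless-2, is secreted, binds BMPs and can either block or help their signalling. Bmper had 60.6, 56.9, 64.0 and 72.8 CPM in the knockout libraries, against 38.9, 41.2, 51.1 and 43.9 CPM in the wild-type libraries. All knockout values were above all wild-type values, and wild-type replicate 3 was the highest of its group. Bmper averaged 63.6 ± 6.795 CPM in knockout and 43.8 ± 5.305 CPM in wild type (SD, n = 4 each), 1.45-fold higher in knockout (log2 0.54, SE 0.12, edgeR adjusted p = 0.0603). It missed the threshold in this test and passed it with the replicate block (adjusted p = 0.00394), with DESeq2 (adjusted p = 0.00184), with limma-voom (adjusted p = 0.0482) and without wild-type replicate 3 (adjusted p = 0.0498). Without each of the other 7 libraries the edgeR adjusted p was between 0.0652 and 0.186. Within replicates 1 and 2 the log2 difference was 0.56, and within replicates 3 and 4 it was 0.53. The authors' deposited table lists it at a log2 fold change of 0.54 with an adjusted p of 0.0268.

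The classic antagonists gave no call. Chrd, encoding chordin, had 8.25, 9.53, 11.0 and 9.20 CPM in the knockout libraries, against 8.24, 9.45, 7.60 and 8.54 CPM in the wild-type libraries (log2 0.16, SE 0.12, edgeR adjusted p = 1). Grem1, encoding gremlin, was low, with 14 to 32 reads per knockout library, against 10 to 62 reads per wild-type library (log2 −0.15, SE 0.34). Nog, encoding noggin, and Fst, encoding the activin antagonist follistatin, were at log2 0.09 and 0.07. The groups overlapped in all 4 of these genes.

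None of the 12 receptor genes was called by edgeR or DESeq2, and 1 had an unadjusted p under 0.05. Their median log2 difference was 0.04, and 11 of the 12 lay within 0.25 of zero. The exception was Bmpr1b, a type I BMP receptor, which had 61.8, 60.8, 30.1 and 36.2 CPM in the knockout libraries, against 33.5, 30.7, 32.4 and 21.5 CPM in the wild-type libraries. Knockout replicates 1 and 2 were far above every wild-type library, whereas knockout replicates 3 and 4 lay near the wild-type values. Bmpr1b averaged 47.2 ± 16.4 CPM in knockout and 29.5 ± 5.47 CPM in wild type (SD, n = 4 each) (log2 0.68, SE 0.24, edgeR adjusted p = 0.369). It passed with the replicate block (adjusted p = 0.0499), and not with DESeq2 (adjusted p = 0.14). Within replicates 1 and 2 the log2 difference was 0.93 (edgeR adjusted p = 0.000929), and within replicates 3 and 4 it was 0.31 (adjusted p = 0.747); whether the 2 differences differ was not tested. The related Bmpr1a had a log2 difference of 0.10 (SE 0.17).

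The next largest differences were in Acvr1, a type I receptor that binds BMPs and activins (log2 −0.23, SE 0.12, edgeR adjusted p = 0.808), and Tgfbr3, the co-receptor betaglycan (log2 0.20, SE 0.32, adjusted p = 1). Acvr1 had 12.1, 12.6, 15.2 and 13.3 CPM in the knockout libraries, against 13.6, 15.2, 15.4 and 18.0 CPM in the wild-type libraries, and the groups overlapped. The type II receptors Bmpr2, Acvr2a, Acvr2b and Tgfbr2 lay between −0.12 and 0.08 on the log2 scale, and the type I receptors Tgfbr1, Acvr1b, Acvr1c and Acvrl1 between −0.02 and 0.09.

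Several receptors lay further apart between pairs of replicates than between genotypes. Tgfbr1, the type I TGF-beta receptor, had 411, 436, 292 and 329 CPM in the knockout libraries, against 439, 399, 307 and 304 CPM in the wild-type libraries. Bmpr2 had 150.3, 141, 97.1 and 96.8 CPM in the knockout libraries, against 157, 150.3, 105 and 115 CPM in the wild-type libraries. In both, replicates 1 and 2 were above replicates 3 and 4 in each genotype. Bmpr1a, Acvr2a, Smad5 and Id1 showed the same order, and the log2 ratio of replicates 1 and 2 to replicates 3 and 4 was 0.45 in knockout and 0.46 in wild type for Tgfbr1, and 0.59 and 0.48 for Bmpr2.

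The reverse order was seen in 12 members, with replicates 1 and 2 below 3 and 4 in both genotypes. Acvr1b, a type I activin receptor, had 87.2, 71.5, 133 and 125 CPM in the knockout libraries, against 90.1, 73.7, 122 and 129 CPM in the wild-type libraries, a log2 ratio of replicates 1 and 2 to 3 and 4 of −0.70 in knockout and −0.62 in wild type. Smad1, which carries BMP signals, had 68.9, 66.0, 95.4 and 101 CPM in the knockout libraries, against 70.0, 60.75, 86.4 and 83.0 CPM in the wild-type libraries. Smad3, which carries TGF-beta and activin signals, had 24.8, 22.75, 31.6 and 33.6 CPM in the knockout libraries, against 27.3, 23.7, 31.8 and 34.3 CPM in the wild-type libraries. The other members with this order were Acvr1, Acvrl1, Bmp3, Gdf10, Gdf11, Tgfb3, Bmper, Nog and Bmp1. Together 18 of 45 members (40.0%) split in one of these ways. Over all genes tested 24.5% had replicates 1 and 2 above 3 and 4 in both genotypes and 23% had them below, 47.6% in all. The genes named in this and the preceding paragraph were picked for the split after their values were seen, and the labels name no batch that sets the pairs apart.

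**Figure D4:**
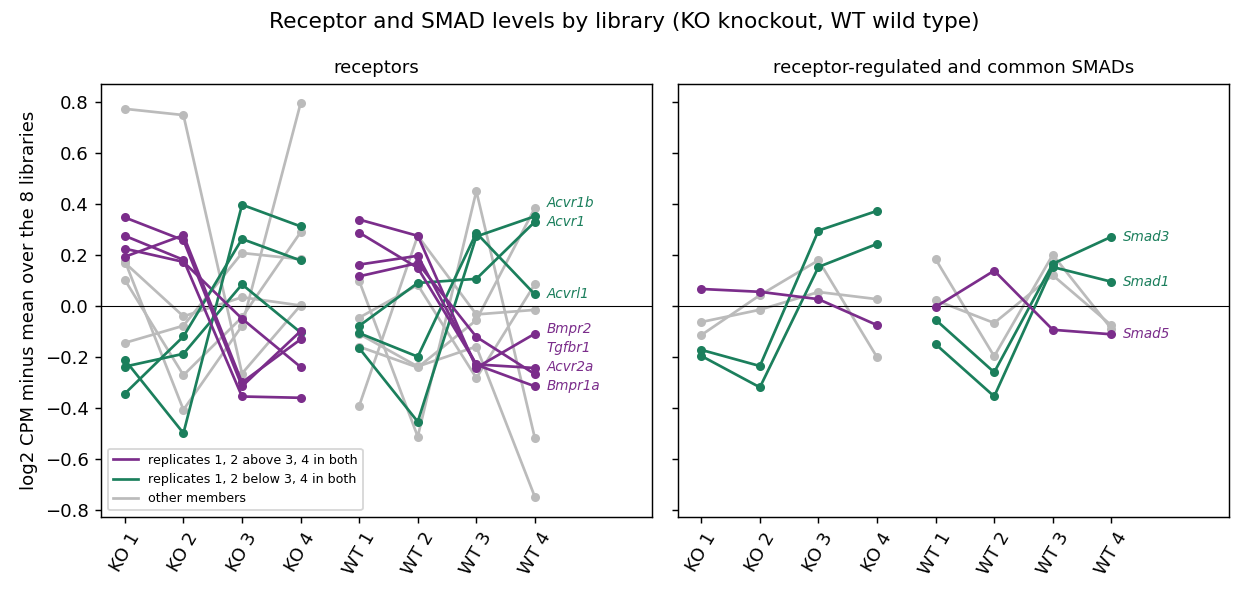
Log2 CPM of receptor genes (left) and receptor-regulated and common SMAD genes (right) in each library minus the gene's mean over the 8 libraries, with knockout libraries before wild-type ones. Coloured lines are genes with replicates 1 and 2 all above (purple) or all below (green) replicates 3 and 4 in both genotypes, such as Tgfbr1 and Bmpr2 above and Acvr1b and Smad3 below.

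The SMADs that carry the signal gave no call by edgeR or DESeq2. The 5 receptor-regulated and common SMAD genes lay between −0.06 and 0.14 on the log2 scale, and none passed at an unadjusted p under 0.05. Smad4, the common partner of all branches, had 192, 198, 208 and 204 CPM in the knockout libraries, against 203, 191, 218 and 190 CPM in the wild-type libraries (log2 0.00, SE 0.08). The largest differences were those of Smad1 (log2 0.14, SE 0.17, edgeR adjusted p = 1) and Smad3 (log2 −0.06, SE 0.16, adjusted p = 1).

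The inhibitory SMADs and ID genes, which BMP signals are known to induce in many tissues, had differences of both signs, negative in both inhibitory SMADs. Smad6 had 0.8775, 0.878, 1.14 and 1.27 CPM in the knockout libraries, against 0.779, 1.53, 1.485 and 1.29 CPM in the wild-type libraries (log2 −0.25, SE 0.27, edgeR adjusted p = 1). Smad7 had 5.12, 6.00, 5.28 and 5.12 CPM in the knockout libraries, against 7.19, 7.47, 5.475 and 5.17 CPM in the wild-type libraries (log2 −0.24, SE 0.15, adjusted p = 1). In Smad7 wild-type replicates 1 and 2 were above every knockout library, and wild-type replicates 3 and 4 were among them.

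ID proteins bind basic helix-loop-helix factors and keep them off DNA, which holds back differentiation. Id4 had 152, 159, 162 and 177.5 CPM in the knockout libraries, against 137, 118, 141 and 125.5 CPM in the wild-type libraries. All knockout values were above all wild-type values. Id4 averaged 163 ± 10.7 CPM in knockout and 130.3 ± 10.8 CPM in wild type (SD, n = 4 each), 1.25-fold higher in knockout (log2 0.32, SE 0.09, edgeR adjusted p = 0.162). It was called with the replicate block (adjusted p = 0.0258) and with DESeq2 (adjusted p = 0.0408), and in none of the fits that left out 1 library (adjusted p from 0.212 to 0.423). Id4 overlaps A330033J07Rik in the reference annotation, and that symbol is also in the count table.

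Id2 had 109.7, 109, 92.6 and 103 CPM in the knockout libraries, against 103.5, 68.9, 77.8 and 86.65 CPM in the wild-type libraries (log2 0.30, SE 0.13, edgeR adjusted p = 0.574). Wild-type replicate 1 lay within the knockout values and the other 3 wild-type libraries below them. Id1 had 10.5, 10.3, 7.56 and 7.66 CPM in the knockout libraries, against 9.555, 10.7, 9.51 and 9.29 CPM in the wild-type libraries (log2 −0.10, SE 0.14, adjusted p = 1), and its sign turned, to 0.049, within replicates 1 and 2. Id3 had 8.13, 7.485, 6.09 and 6.89 CPM in the knockout libraries, against 7.49, 8.66, 7.34 and 10.6 CPM in the wild-type libraries (log2 −0.24, SE 0.15, adjusted p = 1), and wild-type replicate 4 was the highest. Of the 4 ID genes, 2 thus had positive and 2 negative differences, with no call among them in the edgeR fit without the block. DESeq2, also fitted without the block, called Id4.

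The 5 genes with another role were not called by edgeR or DESeq2, none had an unadjusted p under 0.05, and all lay within 0.25 of zero on the log2 scale. The largest differences were those of Tgfbi, an extracellular matrix protein that TGF-beta induces (log2 0.14, SE 0.25, edgeR adjusted p = 1), and Tgfb1i1, a focal adhesion adaptor (log2 0.11, SE 0.24, adjusted p = 1). Bmp1, a protease that cleaves procollagen and chordin, was at 0.10 (SE 0.10). Bmp2k, a kinase, and Tgfbrap1, a protein of endosome tethering, were at −0.08 and 0.00.

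Lists of 97 other genes, outside the symbols above and chosen with earlier results of these data known, were described in the same fit, and 76 of them were in the table and tested. They are 63 genes of the pathway and 13 genes known as its targets in other tissues. Of the 76, 4 rose and 1 fell (6.58%, where 1.48% of all genes tested were called), with a median log2 difference of −0.01. The genes that rose are 2 pathway genes and 2 targets. With the replicate block 5 rose and 4 fell (11.8%, where 4.38% of all genes were called).

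Among 26 other extracellular antagonists and modulators Vwc2 rose. It encodes brorin, a secreted BMP-binding protein of neural tissue. Vwc2 had 11.05, 11.9, 10.6 and 8.12 CPM in the knockout libraries, against 6.17, 5.44, 5.09 and 5.00 CPM in the wild-type libraries. All knockout values were above all wild-type values, 1.91-fold on average (log2 0.94, SE 0.14, edgeR adjusted p = 0.00857), and the call was kept without any 1 library. Its relative Vwc2l had 15.6, 12.9, 16.05 and 11.55 CPM in the knockout libraries, against 9.61, 9.80, 8.57 and 6.21 CPM in the wild-type libraries (log2 0.71, SE 0.17, edgeR adjusted p = 0.0801, and adjusted p = 0.00367 with the replicate block). Thbs1, encoding thrombospondin, which can activate latent TGF-beta, had 15.0, 11.65, 14.85 and 21.3 CPM in the knockout libraries, against 23.5, 23.5, 28.65 and 28.0 CPM in the wild-type libraries (log2 −0.72, SE 0.17, edgeR adjusted p = 0.083, and adjusted p = 0.00274 with the replicate block). Fbn2, encoding a fibrillin of the extracellular matrix, had 12.2, 16.4, 14.4 and 7.66 CPM in the knockout libraries, against 24.6, 23.85, 19.95 and 20.7 CPM in the wild-type libraries (log2 −0.81, SE 0.20, edgeR adjusted p = 0.106, and adjusted p = 0.00765 with the replicate block). In Vwc2l, Thbs1 and Fbn2 the groups did not overlap.

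Among 25 intracellular mediators and repressors the related zinc finger repressors Zeb1 and Zeb2 changed in opposite directions. Zeb2, whose product binds activated SMADs and is known for its part in interneuron development, had 158.5, 141, 132 and 145 CPM in the knockout libraries, against 214, 191, 192 and 210 CPM in the wild-type libraries. Zeb1 had 129, 124, 132.5 and 132 CPM in the knockout libraries, against 96.6, 95.6, 89.5 and 83.5 CPM in the wild-type libraries. Neither gene's groups overlapped. Zeb1 rose 1.41-fold (log2 0.50, SE 0.08, edgeR adjusted p = 0.00971) and Zeb2 fell to 71.4% of its wild-type level (log2 −0.49, SE 0.09, adjusted p = 0.02). Zeb1 kept its call without any 1 library, and Zeb2 kept it when knockout replicate 1 or wild-type replicate 2 was left out and lost it in the other 6 such fits (edgeR adjusted p between 0.0517 and 0.0853). There were 1.23, 1.14, 0.996 and 1.10 reads of Zeb2 for each read of Zeb1 in knockout libraries, against 2.22, 2.00, 2.15 and 2.52 in wild-type libraries.

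Of 9 other receptors and co-receptors none was called by edgeR or DESeq2, and 2 passed at an unadjusted p under 0.05. Rgmb, a BMP co-receptor, was called lower with the replicate block (log2 −0.31, SE 0.12, edgeR adjusted p = 0.47, and adjusted p = 0.0149 with the block). Of 13 genes known as targets of these signals in other tissues, 2 rose (15.4%, where 1.48% of all genes tested were called). They were Msx3, a homeobox gene of the dorsal neural tube (log2 3.24, SE 0.18, edgeR adjusted p = 9.88e-06), and the cell cycle inhibitor gene Cdkn1a (log2 1.07, SE 0.16, adjusted p = 0.00819). In 4 of the 13 (30.8%) the groups did not overlap, each higher in knockout, where 5.98% of all genes tested did not overlap. None of the 3 other ligand genes in the table was called by edgeR, DESeq2 or with the block, and 1 passed at an unadjusted p under 0.05.

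Markers of other cell types that make or receive these signals were summed per library. The 12 endothelial genes summed to 143 to 208 CPM in knockout, against 157 to 230.1 CPM in wild type, with none called by edgeR or DESeq2 and none at an unadjusted p under 0.05. The 8 pericyte genes, at 82.4 to 117 CPM in knockout, against 84.6 to 115 CPM in wild type, were likewise without a call or an unadjusted p under 0.05. Microglia and macrophage genes (12) summed to 67.9 to 79.7 CPM in knockout, against 62.7 to 80.0 CPM in wild type, and 1 was called with the block. Erythroid genes (7) summed to 1439 to 2068 CPM in knockout, against 1697 to 1927 CPM in wild type, and 11 genes of the pallial glutamatergic lineage to 572 to 744 CPM in knockout, against 540.5 to 653 CPM in wild type. Neither list held a gene called by edgeR, DESeq2 or with the block, or at an unadjusted p under 0.05.

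The remaining marker lists held genes that differed between the genotypes. Among 9 genes of meninges and mesenchyme, 1 rose, Pdgfra, and without it the sum was 18.5 to 40.2 CPM in knockout, against 18.75 to 30.3 CPM in wild type. Of 9 choroid plexus and hem genes in the table, 7 were tested and Otx2 rose, and without it the sum was 3.41 to 6.19 CPM in knockout, against 4.51 to 9.46 CPM in wild type. Aqp1 of that list was also higher in knockout (log2 1.13, SE 0.37, edgeR adjusted p = 0.279), and its groups overlapped. Of the 7 tested genes, 2 had positive and 5 negative log2 differences. The hem gene Rspo2 had 36, 26, 11 and 7 reads in knockout, against 116, 51, 39 and 78 in wild type, and its scaled values did not overlap (log2 −1.74, SE 0.43, edgeR adjusted p = 0.103, DESeq2 adjusted p = 0.0017). Rspo1 was at log2 −1.05 (SE 0.36, edgeR adjusted p = 0.324). The hem gene Wnt8b, too low to be tested, had 5, 2, 1 and 0 reads in knockout, against 16, 13, 9 and 32 in wild type. Scaled, this was 0.119, 0.0418, 0.0669 and 0 CPM in knockout, against 0.14, 0.643, 0.382 and 1.33 CPM in wild type. Replicate 1 of knockout and replicate 1 of wild type lay closest to each other. The choroid plexus gene Ttr, also not tested, had 4, 93, 0 and 6 reads in knockout, against 34, 12, 3 and 17 in wild type, and its values overlapped. The 10 genes of ventricular zone progenitors summed to 3052 to 3683 CPM in knockout, against 2440 to 2925 CPM in wild type. With the replicate block 4 were called higher (40%, where 4.38% of all genes were called), and with DESeq2 2 were (20%, where 3.23% were). In the edgeR fit without the block none was called, and 3 had an unadjusted p under 0.05. Fabp7 weighed most in that sum, averaging 1284 CPM in knockout and 1004 CPM in wild type, and its groups overlapped. All 10 log2 differences were positive, and in 1 gene (10%) the groups did not overlap, as in 5.98% of all genes tested. Eminence identity genes summed to 582 to 652 CPM in knockout, against 1037 to 1132 CPM in wild type. The part of these shifts in the differences of Tgfb3, Inhba, Inhbb, Bmper, Id4, Vwc2, Zeb1 and Zeb2 was not tested.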

How the data were processed

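The authors deposited raw read counts per gene symbol for 8 RNA libraries. Per the submitters' processing notes, reads were handled with bcl2fastq and STAR 2.4.2a on mm9. For the counting tool, its annotation and its use of strand, the entry is the same: not given in the sources used here. Per the labels the molecule is polyA RNA, while the kit named there is for stranded, ribosome-depleted total RNA. The same table holds the authors' log2 fold change and log2 expression, a likelihood ratio score and p-values, and values from these columns are named as the authors' where printed. Of 14664 symbols, 23 had been turned into dates. All columns were matched to samples by the titles.

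The test was edgeR's quasi-likelihood F test (edgeR 4.0.16, limma 3.58.1, R 4.3.3), scaled by TMM. Low genes were dropped by filterByExpr with its minimum count set to 10, and p-values were adjusted by Benjamini-Hochberg over 14510 genes, with a threshold of 0.05. DESeq2 1.42.0, limma-voom, other scalings and filters, a replicate block and subsets of libraries were alternatives. On simulated counts of 14425 genes for knockout against wild type, the test recovered 22.4% of genes changed 1.5-fold, 86.4% changed 2-fold and 100% changed 4-fold, with 6 false calls.

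By rule, values per library were given for members called by any of the 3 fits or without overlap, and for inhibitory SMADs and ID genes. Of the others, the 2 largest differences per role could be named, and from the other lists the genes called with or without the block. Every further member was named to account for it. The values per library of Gdf11, Smad4, Inha and the genes split by replicate, and Aqp1, Rspo1, Rspo2, Wnt8b and Ttr, were added after they were seen. The members and lists were chosen with earlier results of these data known.

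The replicate numbers come from the titles, which do not say that a number marks a litter or a batch. The replicate block took the numbers to pair the libraries. Deviations from the genotype means correlated between same-numbered libraries at 0.155, 0.293, 0.374 and 0.482. Knockout replicate 1 correlated more with wild-type replicate 2 (0.394) and knockout replicate 2 with wild-type replicate 1 (0.603). Pairing by number is thus not borne out for replicates 1 and 2, and results with the block assume it. No library was a copy of another: counts within a genotype differed by a chi-square of 14.4 to 98.9 per degree of freedom. All 45 symbols were in RefSeq's GRCm38 table, used for names, overlaps (4 members overlap another symbol of the count table) and promoters, with windows for 30 members; Tgfb3 has none there, and windows on chromosome 18 were left out.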

Additional observations from a re-analysis of the deposited data

Results flagged for a closer look

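Fst, the gene of the activin antagonist follistatin, had 7.57 CPM in wild-type replicate 1, against 5.33 to 5.49 CPM in the other 3 wild-type libraries. The gap took 0.93 of the range of the group, above the critical value of Dixon's test for 4 samples. It was the only such value among 90 groups of 4 libraries looked at, where chance marks about 1 in 20.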

How the results depend on the processing

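Over all genes, 215 were called; DESeq2 called 468, the replicate block 635, replicates 1 and 2 alone 380, and a term for replicates 1 and 2 against 3 and 4 gave 669. Leaving out 1 library gave 142 to 184. Of the members, 3 were called, and these settings gave 5 (DESeq2), 6 (replicate block), 5 (replicates 1 and 2 alone) and 6 (the term), with 1 in replicates 3 and 4 alone and 1 to 3 without 1 library. Of the other pathway and target genes 5 were called, against 8 with DESeq2, 9 with the block, 12 with the term and 4 to 5 without 1 library. The block added Bmper, Bmpr1b and Id4 among the members and Vwc2l, Thbs1, Fbn2 and Rgmb among the other pathway genes, and changed no other call among the named genes. Other scalings, filters and limma-voom kept these counts within 1.5 times. For single named genes, 311 comparisons kept direction and side of the threshold, 26 gained a call and 21 lost one. The exception in direction was Id1, at 0.049 on the log2 scale within replicates 1 and 2. Inhba was not tested under the filter of 1 CPM in 4 libraries. The cause of these differences was not tested. The members with the fewest reads over all libraries were Tgfb1, Bmp2, Inhba and Grem1, and what depth contributes to their errors was not tested.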
